A study of Mus musculus with 4 samples.

Results

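The genes described here are 42 genes of the cell cycle and of DNA replication, measured in splenic dendritic cells (DC) of MARCO-/- and WT mice with and without LPS. They were chosen by name, and every probe set annotated with the symbol of exactly 1 of them was taken from all 4 arrays. This gave 78 probe sets for 41 of the 42 genes, out of 28898 probe sets and 17097 genes with a symbol of their own. No probe set carried the symbol of Ccnb1 alone, so Ccnb1, the main mitotic cyclin, was not analysed here, and 3 probe sets shared by Gins2 and other symbols were not used. Each gene is given by its brightest probe set, and 26 of the 41 genes had more than 1. By their roles 16 genes were placed in S phase, 21 in mitosis (20 measured), 3 are D-type cyclins and 2 are inhibitors of cyclin-dependent kinases (CDK).

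The samples were DC of MARCO-/- mice with LPS, of MARCO-/- mice with PBS, of WT mice with LPS and of WT mice with PBS, with 1 array each. MARCO-/- mice lack the scavenger receptor MARCO, and the WT mice were C57BL/6 animals bought from a supplier (the labels write the background of all 4 samples as C56BL/6). All mice were 8 to 12 weeks old. The cells were selected with CD11c beads from pools of 5 to 6 spleens and were cultured overnight, LPS being a bacterial ligand of TLR4 used at 100 ng/ml. The pool behind each array was not stated. Values are RMA intensities on a linear scale, and the median of all of them was 4.86, so values near it are background. With 1 array a group there is no replicate and no test was run: a gene is called when 2 arrays differ at least 2-fold, the threshold of the methods, and ratios are given as log2 of the intensities with no offset.

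Cells enter the cycle when D-type cyclins with CDK4 or CDK6, and then cyclin E with CDK2, phosphorylate the retinoblastoma protein and free E2F factors, which switch on the genes of S phase. The MCM helicase, loaded by CDC6 and CDT1, then opens the DNA, PCNA holds the polymerase, and ribonucleotide reductase and thymidylate synthase supply nucleotides. Cyclin A and B with CDK1, the Polo and Aurora kinases and the kinesins of the spindle act in mitosis, and their genes are kept silent earlier in the cycle by the DREAM complex. Conventional DC of the spleen arise from dividing precursors.

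Marco itself had 4.25 with LPS and 3.95 with PBS in MARCO-/- DC, against 3.15 with LPS and 8.05 with PBS in WT DC. Only the array of WT DC with PBS was above the median of all intensities. With LPS both genotypes were at background, so Marco does not check the labels of that pair of arrays. By RT-PCR the paper found MARCO raised by LPS in splenic DC, a rise that the values of WT DC here did not show. The reason was not tested.

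The cells carried DC transcripts. H2-Aa, a chain of MHC class II, had 2035 with LPS and 5231 with PBS in MARCO-/- DC, against 3013 with LPS and 4999.8 with PBS in WT DC. Itgax, which encodes the CD11c used for selection, had 16.4 with LPS and 621 with PBS in MARCO-/- DC, against 12.9 with LPS and 548 with PBS in WT DC, so that both arrays with LPS were low in it. Transcripts of other spleen cells were present: Ms4a1 of B cells had 884 with LPS and 647 with PBS in MARCO-/- DC, against 1113 with LPS and 787 with PBS in WT DC, and Hba-a1 of red cells had 6792 (LPS) and 6275 (PBS) in MARCO-/- DC and 3971 (LPS) and 4372 (PBS) in WT DC. The arrays of WT DC with LPS and of MARCO-/- DC with PBS stood apart in matrix genes: the intensities of 15 fibroblast and matrix genes summed to 71.1 with LPS and 684 with PBS in MARCO-/- DC, against 2203 with LPS and 70.5 with PBS in WT DC. Col3a1, a collagen of connective tissue, had 12.1 (LPS) and 315 (PBS) in MARCO-/- DC and 959 (LPS) and 4.57 (PBS) in WT DC. The summed intensity of 10 NK cell genes was 355 with LPS and 1438 with PBS in MARCO-/- DC, against 515 with LPS and 1766 with PBS in WT DC, and 8 of the 10 were at least 2-fold lower with LPS in each genotype. That of 12 T cell genes was 282 with LPS and 532 with PBS in MARCO-/- DC, against 293 with LPS and 634 with PBS in WT DC. That of 13 monocyte and neutrophil genes was 70.9 with LPS and 408 with PBS in MARCO-/- DC, against 105 with LPS and 554 with PBS in WT DC. NK cell, T cell and monocyte genes were thus lower in sum with LPS in both genotypes, the T cell sum largely through Cd8a. Cd8a had 36.04 with LPS and 244 with PBS in MARCO-/- DC, against 49.7 with LPS and 357 with PBS in WT DC. Cd3d went the other way, with 69.1 (LPS) and 56.3 (PBS) in MARCO-/- DC and 69.7 (LPS) and 55.97 (PBS) in WT DC. Of the 12 T cell genes 10 were lower with LPS in MARCO-/- DC and 7 in WT DC. The part of other cells in the results was not tested.

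As a group the S-phase genes were higher with LPS than with PBS in both genotypes, and the mitotic genes were near equal in MARCO-/- DC and lower with LPS in WT DC. The median log2 ratio of LPS over PBS was 0.64 in MARCO-/- DC and 0.55 in WT DC over the 16 S-phase genes. Over the 20 mitotic genes it was 0.10 in MARCO-/- DC and -0.51 in WT DC. The gap between the groups of genes, S phase minus mitosis, was thus 0.54 in MARCO-/- DC and 1.06 in WT DC. Over all 17097 genes the medians were 0.00 in MARCO-/- DC and 0.05 in WT DC, and over the 4715 genes whose highest log2 value was at least 6 they were 0.10 in MARCO-/- DC and 0.00 in WT DC. In bulk RNA a smaller share of cycling cells and less RNA of these genes per cell cannot be told apart.

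Few single genes passed 2-fold. In MARCO-/- DC 7 of the 41 genes (17.1%) differed at least 2-fold between LPS and PBS, 4 higher and 3 lower, where 12.3% of all genes did and 24.8% of the 4715 brighter ones. In WT DC 7 of 41 (17.1%) did so too, 4 higher and 3 lower, against 14.5% of all genes and 28.4% of the brighter ones. Of the 25 genes that reached a log2 value of 6, 5 (20.0%) were called in each genotype, below the share of the brighter genes, so the count alone does not set the cell cycle genes apart. By probe sets it was 18 of 78 in MARCO-/- DC, where 10.1% of all probe sets were called, and 17 of 78 in WT DC, where 12.6% were, 9 of them in each genotype from Ccnd1 and Ccnd2. Of the 7 genes in each genotype, 4 were D-type cyclins or the inhibitor Cdkn1a in MARCO-/- DC and 3 were in WT DC.

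**Figure D1:**
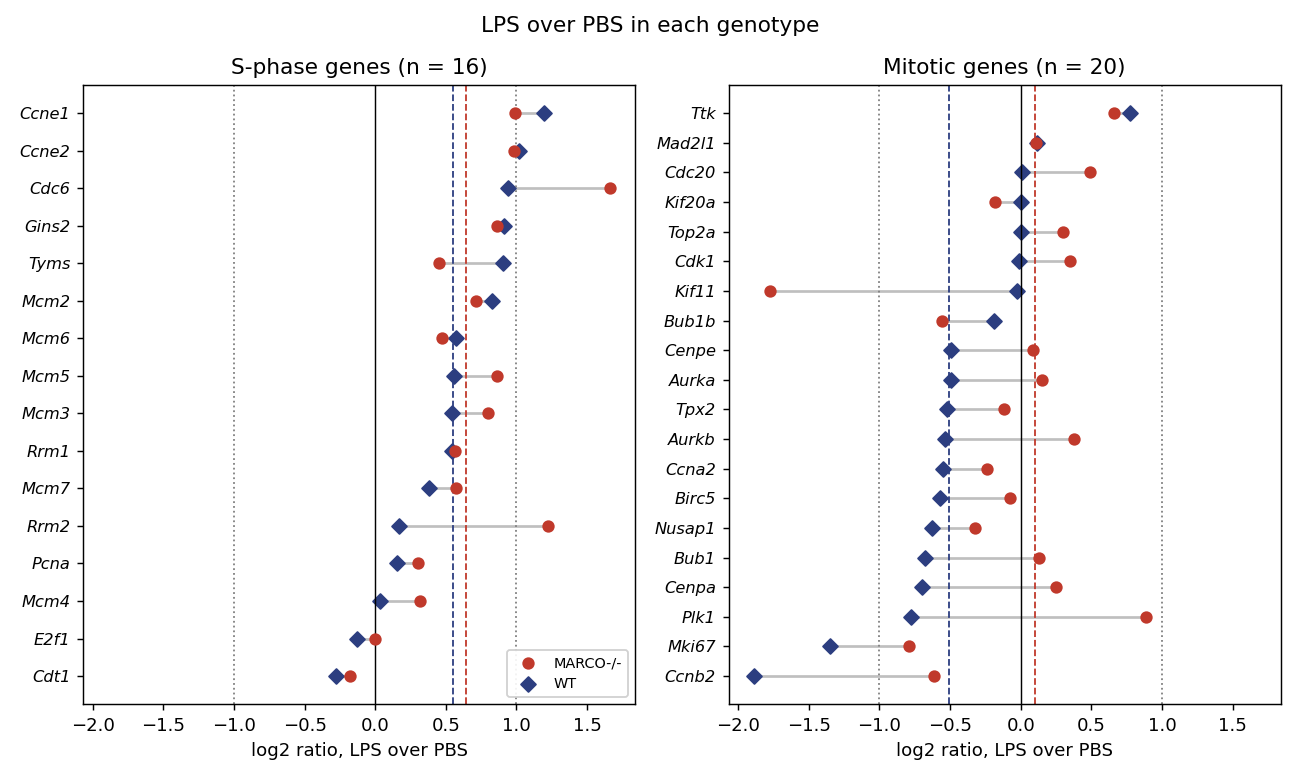
log2 ratio of LPS over PBS (horizontal axis) of the 16 S-phase genes, left, and the 20 mitotic genes, right, in MARCO-/- DC (red circles) and WT DC (blue diamonds), with 1 array behind each side of a ratio; dashed lines are the medians of each genotype and dotted lines mark 2-fold. S-phase medians lie at 0.64 in MARCO-/- DC and 0.55 in WT DC, and mitotic medians at 0.10 in MARCO-/- DC and -0.51 in WT DC.

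Among the S-phase genes 14 of 16 had a higher intensity with LPS than with PBS in both genotypes, and Cdt1 was lower in both. Of all genes 45.8% were higher with LPS in MARCO-/- DC and 55.2% in WT DC. Of the 4715 brighter ones it was 55.7% in MARCO-/- DC and 49.7% in WT DC. S-phase genes at least 2-fold higher were Cdc6 and Rrm2 in MARCO-/- DC and Ccne1 and Ccne2 in WT DC. Cdc6, which loads the MCM helicase onto origins, had 44.3 with LPS and 14.01 with PBS in MARCO-/- DC, against 25.1 with LPS and 13.1 with PBS in WT DC. It was 3.16-fold higher with LPS in MARCO-/- DC and 1.92-fold higher in WT DC. The highest array was that of MARCO-/- DC with LPS, and both arrays with PBS were low.

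Cyclin E drives the step from G1 into S phase. Ccne1 had 23.3 with LPS and 11.8 with PBS in MARCO-/- DC, against 22.003 with LPS and 9.60 with PBS in WT DC, with log2 ratios of LPS over PBS of 0.99 in MARCO-/- DC and 1.20 in WT DC. Ccne2 had 11.8 with LPS and 5.96 with PBS in MARCO-/- DC, against 9.73 with LPS and 4.81 with PBS in WT DC, with log2 ratios of 0.98 in MARCO-/- DC and 1.02 in WT DC. Both cyclin E genes were thus about as far above their PBS value in either genotype, on either side of the 2-fold line. Their PBS values lie near the background, and with an offset of 16 on every intensity the log2 ratios in WT DC were 0.57 for Ccne1 and 0.31 for Ccne2. E2f1, the factor that activates many S-phase genes, was flat, with 10.4 (LPS) and 10.4 (PBS) in MARCO-/- DC and 10.4 (LPS) and 11.4 (PBS) in WT DC.

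Rrm2, the regulated subunit of ribonucleotide reductase, differed most between the genotypes among the S-phase genes. It had 190.03 with LPS and 81.2 with PBS in MARCO-/- DC, against 98.3 with LPS and 87.4 with PBS in WT DC. Only the array of MARCO-/- DC with LPS was high: the ratio of LPS over PBS was 2.34-fold in MARCO-/- DC and 1.12-fold in WT DC, and the second probe set had 68.6 (LPS) and 35.7 (PBS) in MARCO-/- DC and 35.7 (LPS) and 34.6 (PBS) in WT DC. Its partner Rrm1, the large subunit, had 158 with LPS and 107 with PBS in MARCO-/- DC, against 157 with LPS and 108 with PBS in WT DC. In this probe set Rrm1 was higher with LPS by nearly the same ratio in both genotypes, with log2 ratios of 0.56 in MARCO-/- DC and 0.54 in WT DC. In its second probe set the log2 ratios were 0.09 in MARCO-/- DC and 0.36 in WT DC.

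The 6 genes of the MCM2-7 helicase, which unwinds DNA ahead of the fork, were all higher with LPS in both genotypes, and none reached 2-fold. Mcm2 had 97.4 with LPS and 59.4 with PBS in MARCO-/- DC, against 105 with LPS and 59.4 with PBS in WT DC. Mcm5 had 72.7 with LPS and 40.1 with PBS in MARCO-/- DC, against 53.9 with LPS and 36.6 with PBS in WT DC. Mcm6 had 258 with LPS and 186 with PBS in MARCO-/- DC, against 306 with LPS and 206 with PBS in WT DC. In MARCO-/- DC the log2 ratios of the 6 genes ran between 0.31 for Mcm4 and 0.86 for Mcm5, and in WT DC between 0.03 for Mcm4 and 0.83 for Mcm2. Of these, Mcm4 had the smallest ratio in both genotypes, with 224 (LPS) and 179.9 (PBS) in MARCO-/- DC and 168 (LPS) and 164 (PBS) in WT DC. The second probe set of Mcm3 was not higher with LPS in MARCO-/- DC, where its log2 ratio was -0.06, against 0.72 in WT DC. The second probe set of Mcm5 lay at background on all arrays, under 3.

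Among other genes of the fork and of nucleotide supply, the brightest probe sets of Pcna, Gins2 and Tyms were higher with LPS in both genotypes. That of Cdt1 was lower in both. Pcna, the sliding clamp, had 1152 with LPS and 932 with PBS in MARCO-/- DC, against 1083 with LPS and 971 with PBS in WT DC. Its arrays with LPS were the higher ones by 1.24-fold in MARCO-/- DC and 1.11-fold in WT DC. Gins2, a subunit of the active helicase, had 37.3 with LPS and 20.5 with PBS in MARCO-/- DC, against 37.9 with LPS and 20.2 with PBS in WT DC. Both arrays with LPS were about equal in this probe set of Gins2. Its second probe set had 17.0 (LPS) and 6.44 (PBS) in MARCO-/- DC and 11.7 (LPS) and 7.13 (PBS) in WT DC. That was 2.64-fold higher with LPS in MARCO-/- DC and 1.64-fold higher in WT DC. Tyms, which makes thymidylate, had 111 with LPS and 81.4 with PBS in MARCO-/- DC, against 123 with LPS and 65.8 with PBS in WT DC, and its other 4 probe sets lay at background with intensities under 4. Cdt1, the partner of CDC6 in loading, had 212 with LPS and 239.6 with PBS in MARCO-/- DC, against 256 with LPS and 309.5 with PBS in WT DC, and its second probe set went higher with LPS in MARCO-/- DC (log2 ratio 0.37) and lower in WT DC (-0.55).

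Most mitotic genes were lowest on the array of WT DC with LPS. It was below each of the other 3 arrays for 14 of the 20 genes (for Top2a by under 0.1 of intensity), and for 0 of the 16 S-phase genes. Ties were not counted. The share of all genes that were lowest on this array was not taken, so these counts have no background to be read against. Of the 4715 brighter genes 64.5% were higher in MARCO-/- than in WT DC with LPS. The 14 S-phase genes that were higher with LPS in WT DC could not be lowest on that array. In WT DC 16 of 20 had a lower intensity with LPS than with PBS and 3 a higher one. In MARCO-/- DC 9 were lower and 11 higher, and 8 genes were higher with LPS in MARCO-/- DC and lower in WT DC. These counts of direction set no minimum size and include Top2a and Cdk1, which were nearly equal with LPS and PBS in WT DC. Of all genes 55.2% were higher with LPS in WT DC and 45.8% in MARCO-/- DC, and of the brighter ones 49.7% and 55.7%. The share of all genes that went in opposite directions was not taken. Mitotic genes past 2-fold were Kif11 in MARCO-/- DC and Ccnb2 and Mki67 in WT DC, all lower with LPS.

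Ccnb2, a mitotic B-type cyclin, had 43.4 with LPS and 66.2 with PBS in MARCO-/- DC, against 19.3 with LPS and 71.5 with PBS in WT DC. It was 1.53-fold lower with LPS in MARCO-/- DC and 3.71-fold lower in WT DC, and the array of WT DC with LPS was far below the other 3. Mki67, the Ki-67 antigen that coats mitotic chromosomes, had 153 with LPS and 265 with PBS in MARCO-/- DC, against 90.8 with LPS and 232 with PBS in WT DC. Both arrays with LPS were below both with PBS, by 1.73-fold in MARCO-/- DC and 2.55-fold in WT DC.

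Plk1, the Polo-like kinase that drives entry into mitosis, differed in direction between the genotypes. It had 33.3 with LPS and 18.01 with PBS in MARCO-/- DC, against 11.6 with LPS and 19.96 with PBS in WT DC. With LPS it was 1.85-fold higher in MARCO-/- DC and 1.72-fold lower in WT DC, each under 2-fold. The checkpoint kinase gene Bub1 had 52.3 with LPS and 47.7 with PBS in MARCO-/- DC, against 24.7 with LPS and 39.4 with PBS in WT DC, and its dim second probe set had 3.29 (LPS) and 4.06 (PBS) in MARCO-/- DC and 2.97 (LPS) and 4.33 (PBS) in WT DC. Aurkb, the kinase of the chromosomal passenger complex, had 27.9 with LPS and 21.5 with PBS in MARCO-/- DC, against 14.8 with LPS and 21.5 with PBS in WT DC, and its partner Birc5, which encodes survivin, had 90.8 with LPS and 95.9 with PBS in MARCO-/- DC, against 61.6 with LPS and 91.4 with PBS in WT DC. The second probe set of Aurkb had 12.95 (LPS) and 12.01 (PBS) in MARCO-/- DC and 11.2 (LPS) and 15.4 (PBS) in WT DC. In the brightest probe sets of Bub1, Aurkb and Birc5 the array of WT DC with LPS was the lowest, and the other 3 were closer to each other than to it. Aurka, the kinase of spindle poles, had the same order with 21.7 (LPS) and 19.5 (PBS) in MARCO-/- DC and 14.2 (LPS) and 20.03 (PBS) in WT DC, and so did its activator Tpx2 with 27.1 (LPS) and 29.3 (PBS) in MARCO-/- DC and 18.8 (LPS) and 27.1 (PBS) in WT DC.

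Top2a and Cdk1 were nearly equal with LPS and PBS in WT DC. Top2a, which untangles replicated DNA, had 187 with LPS and 152 with PBS in MARCO-/- DC, against 142 with LPS and 142 with PBS in WT DC. Cdk1, the kinase of mitotic entry, had 89.4 with LPS and 70.3 with PBS in MARCO-/- DC, against 67.5 with LPS and 68.1 with PBS in WT DC. For these genes the array of MARCO-/- DC with LPS was the highest, and the other 3 were alike. Ccna2, the cyclin of S phase and G2, had 109 (LPS) and 128 (PBS) in MARCO-/- DC and 88.7 (LPS) and 129.8 (PBS) in WT DC, while its second probe set had 125 (LPS) and 100.3 (PBS) in MARCO-/- DC and 85.9 (LPS) and 87.5 (PBS) in WT DC.

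The other mitotic genes were mixed. Ttk, a kinase of the spindle checkpoint, was higher with LPS in both genotypes, with 24.7 (LPS) and 15.7 (PBS) in MARCO-/- DC and 28.5 (LPS) and 16.7 (PBS) in WT DC. Mad2l1, the checkpoint protein MAD2, had 106 with LPS and 97.97 with PBS in MARCO-/- DC, against 119.5 with LPS and 110.1 with PBS in WT DC, all within 1.5-fold. Cdc20, the activator of the anaphase-promoting complex, had 50.8 (LPS) and 36.1 (PBS) in MARCO-/- DC and 40.1 (LPS) and 39.8 (PBS) in WT DC. Bub1b, another gene of the spindle checkpoint, was lower with LPS in both genotypes, with 21.4 (LPS) and 31.5 (PBS) in MARCO-/- DC and 23.8 (LPS) and 27.2 (PBS) in WT DC, while Nusap1, a spindle protein, was lowest on the array of WT DC with LPS, with 75.7 (LPS) and 94.7 (PBS) in MARCO-/- DC and 63.2 (LPS) and 97.5 (PBS) in WT DC. Kif20a, a kinesin of cytokinesis, was between 12.1 and 13.7 on all arrays. Cenpe, a kinesin of kinetochores, had 43.7 (LPS) and 41.1 (PBS) in MARCO-/- DC and 32.5 (LPS) and 45.6 (PBS) in WT DC. This probe set was lowest on the array of WT DC with LPS. The second of Cenpe was lowest on that of MARCO-/- DC with LPS, with 26.8 (LPS) and 35.9 (PBS) in MARCO-/- DC and 28.5 on both arrays of WT DC.

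The probe sets of Kif11 and Cenpa disagreed as well. Kif11, the kinesin that pushes spindle poles apart, had 16.98 with LPS and 58.05 with PBS in MARCO-/- DC, against 26.3 with LPS and 26.8 with PBS in WT DC, with the array of MARCO-/- DC with PBS alone high. Its other probe set had 20.6 (LPS) and 26.5 (PBS) in MARCO-/- DC and 13.04 (LPS) and 25.7 (PBS) in WT DC, where the array of WT DC with LPS was low as for other mitotic genes. Cenpa, the histone of centromeres, had 98.99 with LPS and 83.2 with PBS in MARCO-/- DC, against 55.9 with LPS and 90.97 with PBS in WT DC. Its other probe set was much lower with LPS in both genotypes, with 9.93 with LPS and 44.3 with PBS in MARCO-/- DC, against 7.46 with LPS and 35.2 with PBS in WT DC. Values of these genes depend on the probe set taken.

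Promoter windows are shown for 4 of these genes because S-phase and mitotic genes are known to be read through different promoter words. They are the S-phase and the mitotic gene with the largest fold between LPS and PBS, in either direction, in WT DC (Ccne1, higher, and Ccnb2, lower). The others are the S-phase gene with the largest fold in MARCO-/- DC (Cdc6) and the mitotic gene whose ratios differed most upwards between the genotypes (Plk1). Cdc6 and Plk1 were chosen after the values were seen. The windows are from RefSeq on build GRCm38.p6, run from 250 bases before to 50 bases after the start of the gene, and are written 5′ to 3′ on the strand of the gene: chr7:38107441-38107740, minus strand for Ccne1, chr11:98907901-98908200, plus strand for Cdc6, chr9:70421505-70421804, minus strand for Ccnb2 and chr7:122159185-122159484, plus strand for Plk1. Capitals mark the E2F words TTTCCCGC, TTTCGCGC, TTTGCCGC and TTTGGCGC, the CHR words TTTGAA and TTCGAA and the CCAAT box, each searched on both strands.
Ccne1: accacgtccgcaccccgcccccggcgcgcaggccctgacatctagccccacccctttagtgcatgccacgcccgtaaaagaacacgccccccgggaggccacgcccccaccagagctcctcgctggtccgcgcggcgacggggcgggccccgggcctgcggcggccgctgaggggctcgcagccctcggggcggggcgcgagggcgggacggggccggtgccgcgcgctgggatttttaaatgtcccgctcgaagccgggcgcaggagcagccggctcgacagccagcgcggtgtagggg
Cdc6: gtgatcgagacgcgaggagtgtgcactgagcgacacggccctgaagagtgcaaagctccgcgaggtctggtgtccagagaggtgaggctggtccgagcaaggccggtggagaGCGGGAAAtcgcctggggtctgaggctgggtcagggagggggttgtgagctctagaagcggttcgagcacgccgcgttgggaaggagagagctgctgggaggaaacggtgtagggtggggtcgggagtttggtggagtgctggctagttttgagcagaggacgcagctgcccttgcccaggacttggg
Ccnb2: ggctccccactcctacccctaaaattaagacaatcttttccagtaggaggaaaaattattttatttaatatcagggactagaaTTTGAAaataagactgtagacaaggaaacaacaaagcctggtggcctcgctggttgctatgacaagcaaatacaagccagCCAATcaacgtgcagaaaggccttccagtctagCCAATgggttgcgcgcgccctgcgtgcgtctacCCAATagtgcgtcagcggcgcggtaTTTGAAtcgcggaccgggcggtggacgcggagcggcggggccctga
Plk1: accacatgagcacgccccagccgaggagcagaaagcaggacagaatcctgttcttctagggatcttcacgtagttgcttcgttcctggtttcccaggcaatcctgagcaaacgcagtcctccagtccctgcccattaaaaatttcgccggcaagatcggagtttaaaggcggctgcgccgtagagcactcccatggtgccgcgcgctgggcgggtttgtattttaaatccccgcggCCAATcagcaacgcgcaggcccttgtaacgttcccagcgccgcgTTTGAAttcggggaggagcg

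The window of Cdc6 holds an E2F word on the opposite strand, which reads GCGGGAAA here. Ccnb2 has 3 CCAAT boxes and 2 CHR words, and Plk1 has 1 of each. The window of Ccne1 holds none of these exact words. A match is a description of letters and not a binding site. RefSeq windows were found for 33 of the 42 genes. An E2F word was in the windows of 6 of 13 S-phase genes (Cdc6, Cdt1, Mcm3, Mcm5, Mcm6 and Mcm7) and 1 of 17 mitotic genes (Cdk1), and in 3.29% of 17491 protein-coding genes. A CHR word was in 2 of 13 S-phase genes and 12 of 17 mitotic genes, and in 20.2% of protein-coding genes. A CCAAT box was in 8 of 13 S-phase genes and 14 of 17 mitotic genes, and in 42.3% of protein-coding genes. All 12 mitotic genes with a CHR word had a CCAAT box as well, 2 of 13 S-phase genes held both, and 9.24% of protein-coding genes did. No word overlapped another in the windows shown.

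With LPS most mitotic genes were higher in MARCO-/- DC than in WT DC, and the S-phase genes were closer to equal. The median log2 ratio of MARCO-/- over WT with LPS was 0.42 over the 20 mitotic genes and 0.09 over the 16 S-phase genes. It was 0.00 over all genes and 0.13 over the 4715 brighter ones, of which 64.5% were above 0. Of the 20 mitotic genes 15 were above 0 and 4 below. At least 2-fold higher in MARCO-/- DC were 3 of the 41 genes (7.32%), where 3.4% of all genes passed 2-fold in either direction, 2.09% higher and 1.31% lower. Of the 25 brighter ones it was 1 (Ccnb2), where 3.08% of the brighter genes were called, and of the 78 probe sets 3, where 2.85% were. The 3 genes were Plk1 (2.86-fold), Ccnb2 (2.25-fold) and Bub1 (2.12-fold), whose intensities with LPS were 33.3 in MARCO-/- and 11.6 in WT DC for Plk1, 43.4 in MARCO-/- and 19.3 in WT DC for Ccnb2 and 52.3 in MARCO-/- and 24.7 in WT DC for Bub1. The array of WT DC with LPS enters this comparison and that of LPS over PBS in WT DC, so the same low values stand behind both. Markers of other cells differed between the same arrays: in MARCO-/- DC 11 of 15 matrix genes were lower by 2-fold or more (median log2 ratio -4.18), 3 of 6 plasma cell genes were at least 2-fold higher (median 0.64), and 1 of 14 erythroid genes was (median 0.05). The summed intensity of the plasma cell genes with LPS was 1194 in MARCO-/- DC and 848 in WT DC. Xbp1 and Irf4 made up most of that sum, and Irf4 is also among the conventional DC genes. Of the 3 called plasma cell genes only Jchain reached a log2 value of 6, with 365 in MARCO-/- and 152 in WT DC. Their part in the mitotic values was not tested.

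Under 2-fold the order continued with Aurkb (0.91 on the log2 scale), Cenpa (0.82), Mki67 (0.76), Aurka (0.61), Birc5 (0.56) and Tpx2 (0.52). The second probe sets had 0.22 for Aurkb, 0.41 for Cenpa and 0.85 for Tpx2. Among S-phase genes Rrm2 (log2 ratio 0.95) and Cdc6 (0.82) were the highest, with 190.03 in MARCO-/- and 98.3 in WT DC for Rrm2. After quantile normalization 1 of the 41 genes passed 2-fold, and after cyclic loess 1 did, Plk1 each time. The log2 ratio of Bub1 was 0.84 after quantile normalization and 0.91 after cyclic loess, and that of Ccnb2 was 0.91 and 0.997.

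The ratios of LPS over PBS themselves differed between the genotypes, MARCO-/- minus WT, by a median of 0.45 over the mitotic genes and 0.11 over the S-phase genes on the log2 scale. Over the brighter genes this median was 0.13 with 63.3% above 0. Among mitotic genes the difference was at least 1 for Plk1 and Ccnb2 and at most -1 for Kif11, and among S-phase genes it was at least 1 for Rrm2. Of all genes 3.4% had a difference of at least 1 and 2.53% of at most -1, and of the brighter ones 3.69% and 1.51%. These differences were not tested, since each ratio rests on 1 array a side.

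**Figure D2:**
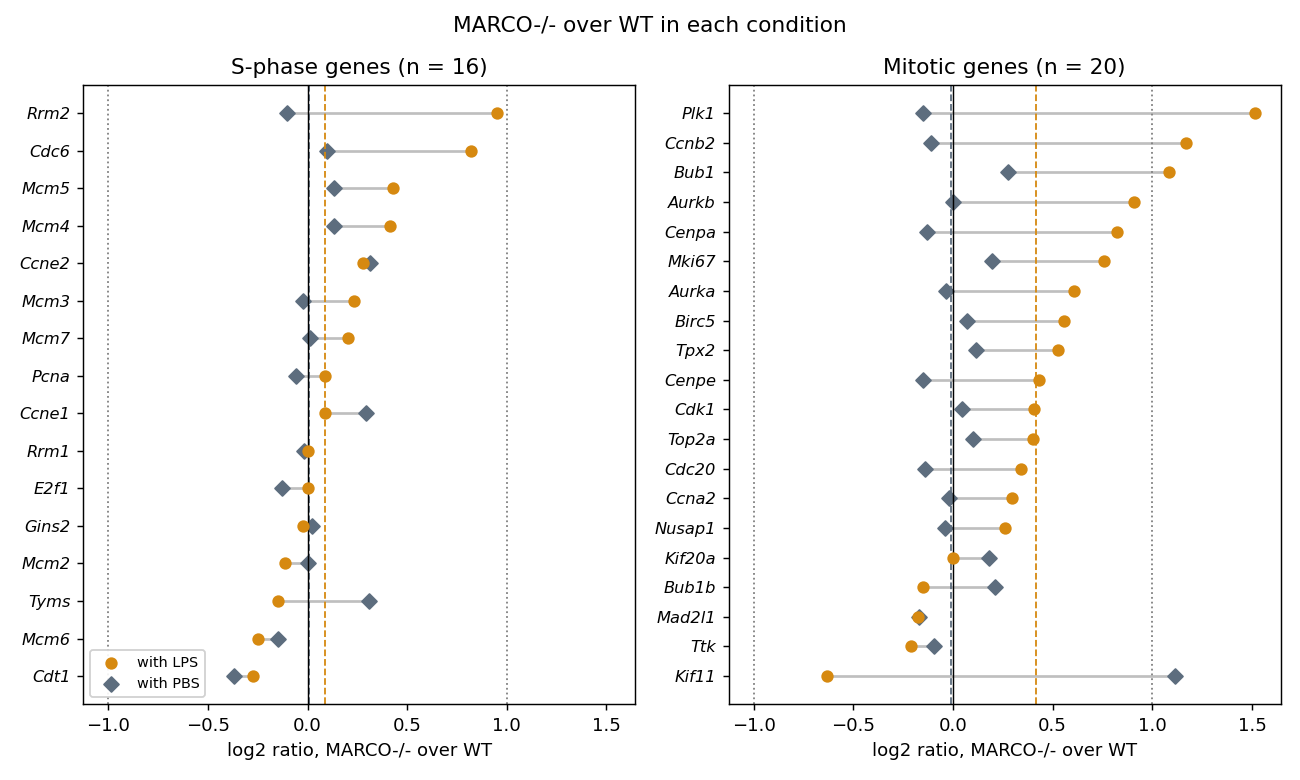
log2 ratio of MARCO-/- over WT (horizontal axis) of the 16 S-phase genes, left, and the 20 mitotic genes, right, with LPS (orange circles) and with PBS (grey diamonds), with 1 array behind each side of a ratio; dashed lines are medians and dotted lines mark 2-fold. With LPS the mitotic median lies at 0.42 and Plk1 at 1.52, while with PBS both medians lie within 0.02 of 0.

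With PBS the medians of both groups of genes were close to 0 between the genotypes. The median log2 ratio of MARCO-/- over WT was 0.01 over S-phase genes and -0.01 over mitotic genes, beside 0.01 over all genes. Of the 41 genes 1 passed 2-fold (2.44%), where 1.05% of all genes did, 0.76% higher and 0.287% lower. This was Kif11, whose other probe set had a log2 ratio of 0.04. None of the 25 brighter genes did, where 1.44% of all brighter genes were called. Of the 78 probe sets 5 passed 2-fold, 3 of Ccnd2 and 1 each of Kif11 and Ccnd3, where 0.955% of all probe sets did. Without Kif11 the ratios of the mitotic genes lay between -0.17 for Mad2l1 and 0.28 for Bub1, and those of the S-phase genes between -0.37 for Cdt1 and 0.31 for Ccne2. Mki67 with PBS had 265 in MARCO-/- and 232 in WT DC, and Pcna 932 in MARCO-/- and 971 in WT DC. Some lists of markers of other cells were higher in MARCO-/- DC with PBS. Higher by 2-fold or more were 10 of 15 matrix genes (median log2 ratio 2.26), 7 of 14 erythroid genes (0.97), 2 of 14 macrophage genes (0.47, with 1 lower, Marco) and 1 of 6 plasma cell genes (0.49). Their part in the cell cycle values was not tested.

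The D-type cyclins link growth signals to CDK4 and CDK6, and of the 41 genes Ccnd1 differed most in fold between LPS and PBS in both genotypes. With LPS Ccnd1 was lower and Ccnd2 higher in both genotypes. Ccnd1 had 15.5 with LPS and 848 with PBS in MARCO-/- DC, against 19.4 with LPS and 559.9 with PBS in WT DC. It was 54.8-fold lower with LPS in MARCO-/- DC and 28.8-fold lower in WT DC, and its other 2 probe sets had log2 ratios of -5.83 and -5.63 in MARCO-/- DC and -5.52 and -5.23 in WT DC. With LPS all 3 probe sets read between 7.74 and 19.4, close to the background, so the size of the fold is set in part by that floor.

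Ccnd2 had 848 with LPS and 303 with PBS in MARCO-/- DC, against 972 with LPS and 153 with PBS in WT DC. It was 2.80-fold higher with LPS in MARCO-/- DC and 6.36-fold higher in WT DC, and all 6 of its probe sets passed 2-fold in both. Both arrays with LPS were high, and the PBS arrays differed: with PBS Ccnd2 was 1.98-fold higher in MARCO-/- than in WT DC. Of its other 5 probe sets, 3 passed 2-fold there, with 282 in MARCO-/- and 130.1 in WT DC in the first, 63.2 in MARCO-/- and 26.8 in WT DC in the second and 170.1 in MARCO-/- and 78.5 in WT DC in the third. With LPS the genotypes were within 1.5-fold in every probe set of Ccnd2.

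Ccnd3 had 46.03 with LPS and 105 with PBS in MARCO-/- DC, against 56.8 with LPS and 80.9 with PBS in WT DC. It was lower with LPS by 2.29-fold in MARCO-/- DC and 1.42-fold in WT DC. Its dim second probe set had 5.18 (LPS) and 19.9 (PBS) in MARCO-/- DC and 4.13 (LPS) and 9.93 (PBS) in WT DC. With PBS all 3 D-type cyclins were higher in MARCO-/- than in WT DC, with log2 ratios of 0.60 for Ccnd1, 0.98 for Ccnd2 and 0.38 for Ccnd3, all under 2-fold in the brightest probe set. With LPS the brightest probe sets were lower in MARCO-/- DC, with -0.33 for Ccnd1, -0.20 for Ccnd2 and -0.30 for Ccnd3, but other probe sets of each gene were higher, so no direction can be given.

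**Figure D3:**
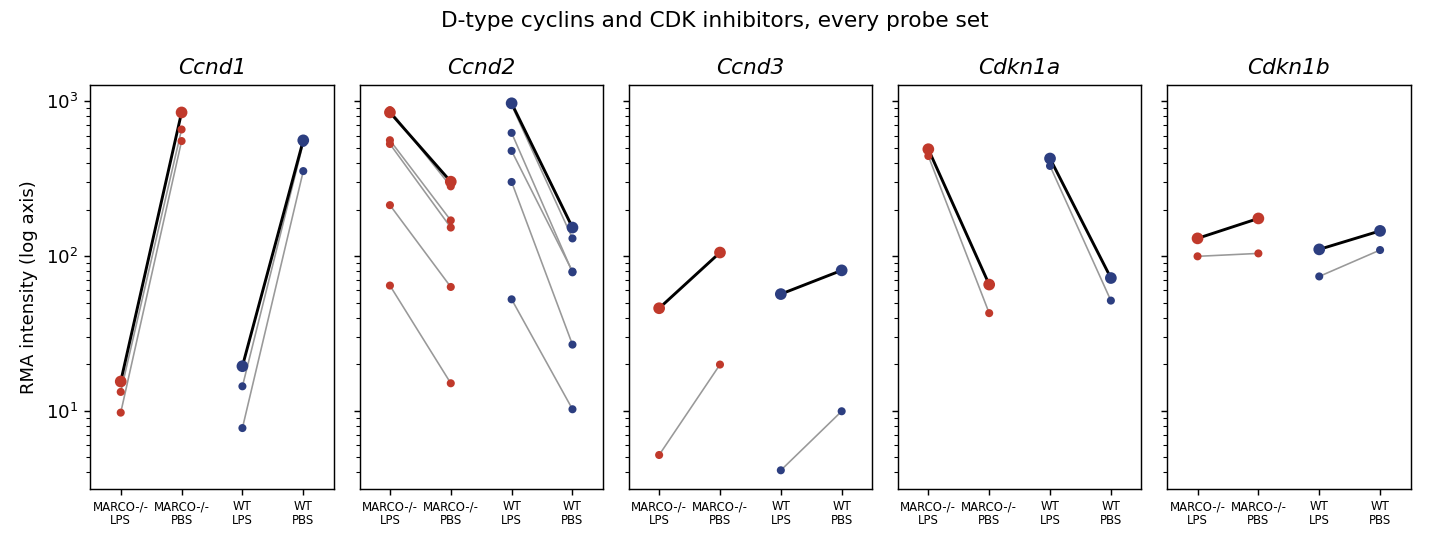
RMA intensity (log axis) of every probe set of the 3 D-type cyclin genes and 2 CDK inhibitor genes on the 4 arrays, MARCO-/- in red and WT in blue; each point is 1 array, lines join LPS and PBS of a genotype, and the brightest probe set of a gene has a black line and larger points. Ccnd1 lies at 15.5 with LPS and 848 with PBS in MARCO-/- DC, Ccnd2 and Cdkn1a are high with LPS in both genotypes, and Cdkn1b stays within 2-fold.

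Marker genes of DC and of other cells also differed between LPS and PBS. Of 15 fibroblast and matrix genes 11 were at least 2-fold lower with LPS in MARCO-/- DC. In WT DC 12 were at least 2-fold higher, where 6.2% of all genes were. Of 14 macrophage genes 10 were at least 2-fold lower with LPS in MARCO-/- DC and 13 in WT DC, and their summed intensity was 691 with LPS and 3395 with PBS in MARCO-/- DC, against 462 with LPS and 2140 with PBS in WT DC. C1qa had 6.06 with LPS and 458 with PBS in MARCO-/- DC, against 36.8 with LPS and 239.5 with PBS in WT DC. Of the 14 conventional DC genes 9 passed 2-fold downwards with LPS in MARCO-/- DC and 8 in WT DC. Over all genes 5.98% were lower in MARCO-/- DC and 8.31% in WT DC. The summed intensity of 13 B cell genes was 2454 with LPS and 2495 with PBS in MARCO-/- DC, against 3202 with LPS and 3032 with PBS in WT DC. The part of these cells in the levels of the D-type cyclins was not tested.

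The CDK inhibitors differed from each other. Cdkn1a, which encodes p21, the inhibitor that p53 induces, had 491 with LPS and 65.5 with PBS in MARCO-/- DC, against 427 with LPS and 72.2 with PBS in WT DC. It was 7.50-fold higher with LPS in MARCO-/- DC and 5.92-fold higher in WT DC, and its second probe set had 443 with LPS and 42.8 with PBS in MARCO-/- DC, against 383 with LPS and 51.6 with PBS in WT DC. Both arrays with LPS were far above both with PBS, and the genotypes differed 1.15-fold with LPS and 1.10-fold with PBS. Cdkn1b, which encodes p27, the inhibitor of resting cells, had 130.2 with LPS and 175 with PBS in MARCO-/- DC, against 111 with LPS and 146 with PBS in WT DC, under 2-fold in every comparison. Its second probe set had 99.7 (LPS) and 104 (PBS) in MARCO-/- DC and 73.9 (LPS) and 109 (PBS) in WT DC.

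Other inhibitors and targets of p53 went both ways. Of 27 such genes measured, 8 were at least 2-fold higher and 4 lower with LPS in MARCO-/- DC, and 6 higher and 8 lower in WT DC, where 12.3% of all genes were called in MARCO-/- DC and 14.5% in WT DC. Cdkn2b, the inhibitor p15 of CDK4 and CDK6, had 372 with LPS and 26.6 with PBS in MARCO-/- DC, against 265 with LPS and 14.9 with PBS in WT DC. Gadd45b, a stress gene that slows the cycle, had 2011 with LPS and 285 with PBS in MARCO-/- DC, against 1511 with LPS and 304 with PBS in WT DC. Both were high on the arrays with LPS only. Btg2, an antiproliferative gene, had 149 with LPS and 1299 with PBS in MARCO-/- DC, against 228 with LPS and 1123 with PBS in WT DC, low with LPS in both genotypes. Between genotypes with LPS 3 of the 27 passed 2-fold (3.4% of all genes did), all higher in MARCO-/- DC: Cdkn2d, the inhibitor p19 of CDK4 and CDK6, with 37.5 in MARCO-/- and 11.6 in WT DC, Pmaip1, which encodes the death protein NOXA, with 504 in MARCO-/- and 234 in WT DC, and Cdkn2a, near the background with 11.8 in MARCO-/- and 3.29 in WT DC.

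Further genes of replication and of mitosis, from lists that hold none of the 42, also differed from each other. Of 46 replication genes, 7 passed 2-fold with LPS in MARCO-/- DC, all higher, and 9 higher and 1 lower in WT DC, where 6.32% of all genes were higher in MARCO-/- DC and 6.2% in WT DC. Their median log2 ratio was 0.70 in MARCO-/- DC and 0.56 in WT DC. Of 61 mitotic genes, 2 passed 2-fold in MARCO-/- DC, both higher, and 6 in WT DC, all lower, where 5.98% of all genes were lower in MARCO-/- DC and 8.31% in WT DC. Their median was 0.00 in MARCO-/- DC and -0.25 in WT DC.

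Gins3, a subunit of the GINS complex of the helicase, had 146 with LPS and 25.5 with PBS in MARCO-/- DC, against 108 with LPS and 14.7 with PBS in WT DC, and was high with LPS in both genotypes. Rfc4, of the loader of PCNA, had 88.96 (LPS) and 40.2 (PBS) in MARCO-/- DC and 102 (LPS) and 40.7 (PBS) in WT DC, and Exo1, a nuclease of mismatch repair, had 16.7 (LPS) and 5.69 (PBS) in MARCO-/- DC and 22.5 (LPS) and 6.49 (PBS) in WT DC. Hells, a chromatin remodeller, was 2.79-fold higher with LPS in MARCO-/- DC, with 75.1 (LPS) and 26.95 (PBS) in MARCO-/- DC and 53.6 (LPS) and 32.999 (PBS) in WT DC, and Clspn, a mediator of the replication checkpoint, 2.36-fold, with 36.8 (LPS) and 15.6 (PBS) in MARCO-/- DC and 19.1 (LPS) and 18.97 (PBS) in WT DC. Cdc7, the kinase that fires origins, was the only replication gene past 2-fold lower in WT DC, with 27.5 (LPS) and 34.1 (PBS) in MARCO-/- DC and 12.6 (LPS) and 28.8 (PBS) in WT DC, and the only one past 2-fold between genotypes with LPS.

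Of the other mitotic genes, Ncapd2 of condensin had 60.2 with LPS and 81.5 with PBS in MARCO-/- DC, against 36.9 with LPS and 86.6 with PBS in WT DC, and Espl1, the separase that opens sister chromatids, had 28.5 (LPS) and 45.1 (PBS) in MARCO-/- DC and 16.9 (LPS) and 38.4 (PBS) in WT DC. Incenp, the scaffold of the Aurora B complex, had 40.6 with LPS and 38.2 with PBS in MARCO-/- DC, against 21.8 with LPS and 43.7 with PBS in WT DC. Each was lowest on the array of WT DC with LPS. Trip13, an ATPase of the spindle checkpoint, was higher with LPS in both genotypes, with 90.1 (LPS) and 37.9 (PBS) in MARCO-/- DC and 81.5 (LPS) and 42.7 (PBS) in WT DC, and Zwilch of kinetochores in MARCO-/- DC, with 37.03 (LPS) and 15.97 (PBS) in MARCO-/- DC and 19.96 (LPS) and 21.96 (PBS) in WT DC. Between genotypes with LPS 49 of the 61 were above 0 and 8 below, with a median log2 ratio of MARCO-/- over WT of 0.25 and none past 2-fold. With PBS 21 were above 0 and 37 below, with a median of -0.04. Of all genes 48.5% were above 0 with LPS and 51.5% with PBS, and of the brighter ones 64.5% and 48.3%.

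**Figure D4:**
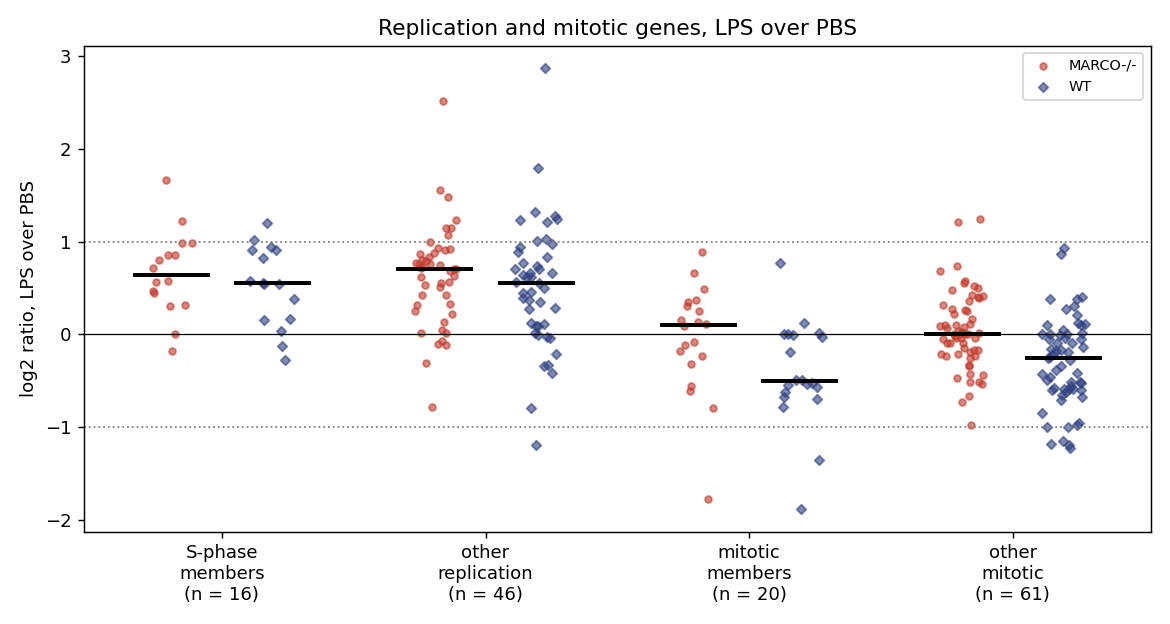
log2 ratio of LPS over PBS (vertical axis) in MARCO-/- DC (red circles) and WT DC (blue diamonds) for the S-phase and mitotic genes described and for further genes of replication and mitosis; each point is 1 gene, the bar is the median and dotted lines mark 2-fold. Replication medians are 0.64 and 0.70 in MARCO-/- DC and 0.55 and 0.56 in WT DC, and mitotic medians 0.10 and 0.00 in MARCO-/- DC and -0.51 and -0.25 in WT DC.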

How the data were processed

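RNA of CD11c-selected splenic DC was hybridized to Affymetrix mouse genome 430 arrays, 1 per group; the methods name version 2.0, while the probe set names carry the PM mark of the perfect-match format. The authors normalized the arrays with RMAexpress (version not given in the sources used here) and deposited intensity values summarized per probe set, which are on a linear scale. RMA draws the distributions of arrays together, which can reduce a shift of all genes. The table has 45141 probe sets. Without 104 control probe sets, 45037 remain, and 28898 of these have exactly 1 gene symbol in GEO's platform annotation. Each gene is given by its brightest probe set (mean log2 over the arrays). Log2 ratios of 2 arrays were taken with no offset and called at 2-fold in all 4 comparisons. No test was run, since no group has a replicate. The number of arrays limits the precision. Counts are read against the share of all genes past 2-fold in the same comparison. Alternatives were quantile normalization, cyclic loess, centring, an offset of 16, 2 filters on dim probe sets, the mean of all probe sets, omission of probe sets named x_at, s_at or a_at, thresholds of 1.5-fold and 3-fold, and smaller gene groups. All 42 genes may be named, and of the other lists up to 8 genes past 2-fold per comparison and a fixed set of marker genes. The genes and lists were chosen with earlier results of these data known. Promoter windows are from RefSeq, GRCm38.p6. The calls at 2-fold and the match of probe sets to genes were tested on simulated arrays with planted differences larger than 2-fold. The medians, the gene lists and the promoter search were not tested in this way. Python 3.11.15, numpy 2.4.6, pandas 2.3.3, matplotlib 3.10.9, R 4.3.3 and limma 3.58.1 were used.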

Additional observations from a re-analysis of the deposited data

Results flagged for a closer look

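Among the 78 probe sets, 2 went in opposite directions by at least 1.5-fold each, and neither difference could be tested with 1 array a group. The share of all probe sets past the same rule was not taken. Plk1 had a log2 ratio of LPS over PBS of 0.89 in MARCO-/- DC and -0.78 in WT DC, a difference of 1.67. The brighter probe set of Kif11 had a log2 ratio of MARCO-/- over WT of 1.11 with PBS and -0.63 with LPS, a difference of 1.75, which the other probe set of Kif11 does not share.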

How the results depend on the processing

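With 1 array a group no replicate could be left out. No paired analysis was possible because each group has 1 array and no ratio comes from a test. Of 164 values of 16 results under other settings, 146 stayed within a factor of 1.5, taken on the count or, for medians, on the fold (0.58 on the log2 scale, which a small median can hardly exceed), and 18, all counts of genes past 2-fold, did not. No median of at least 0.5 in size changed sign. Of 124 values of medians, 15 lay on the other side of 0, all of results of at most 0.10 in size: both groups and their difference for MARCO-/- over WT with PBS, the S-phase median of MARCO-/- over WT with LPS (-0.02 after quantile normalization) and the mitotic median of LPS over PBS in MARCO-/- DC (-0.08 at the lowest). For MARCO-/- over WT with PBS the count of 1 became 2 after quantile normalization and after cyclic loess, 0 with an offset of 16, with the mean of all probe sets, with a highest log2 value of at least 6 and at 3-fold, and 3 at 1.5-fold. For MARCO-/- over WT with LPS the count of 3 became 1 after quantile normalization, after cyclic loess and with a highest log2 value of at least 6, 0 with an offset of 16 and at 3-fold, and 10 at 1.5-fold. For LPS over PBS the count of 7 in MARCO-/- DC became 17 at 1.5-fold and 4 at 3-fold, and the count of 7 in WT DC became 11 after quantile normalization, 16 at 1.5-fold and 4 at 3-fold. The cause was not tested for the normalizations. The S-phase median minus the mitotic median of LPS over PBS was between 0.41 and 0.64 in MARCO-/- DC and between 0.72 and 1.11 in WT DC, the mitotic median of LPS over PBS was between -0.08 and 0.15 in MARCO-/- DC and between -0.57 and -0.26 in WT DC, and that of MARCO-/- over WT with LPS was between 0.26 and 0.49. Counting every probe set once was added after the data were seen. Of 18 single ratios past 2-fold, 14 of 136 values under other settings were under 2-fold, 7 of them with the offset of 16. Without its a_at probe set Cenpa had a log2 ratio of LPS over PBS of -2.16 in MARCO-/- DC, against 0.25 with it. Dim genes limit what can be read: 16 of 41 did not reach a log2 value of 6.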

Other observations

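Of 27 further genes of the G1 kinases, E2F factors and their partners, 2 were at least 2-fold higher with LPS than with PBS in MARCO-/- DC and none was lower, and 1 was higher and 1 lower in WT DC. These counts are below the share of all genes called, 12.3% in MARCO-/- DC and 14.5% in WT DC. Mybl2, which helps to switch on mitotic genes, had 12.8 with LPS and 3.14 with PBS in MARCO-/- DC, against 28.1 with LPS and 3.91 with PBS in WT DC, so that the PBS values lie at the background. It was the only gene of the list past 2-fold between genotypes with LPS, and was lower in MARCO-/- DC. Cdk6, a kinase partner of D-type cyclins, had 151 with LPS and 62.9 with PBS in MARCO-/- DC, against 106 with LPS and 68.3 with PBS in WT DC. E2f2, an activating E2F factor, had 33.4 with LPS and 41.8 with PBS in MARCO-/- DC, against 16.9 with LPS and 34.2 with PBS in WT DC, lowest on the array of WT DC with LPS. Among the further genes of replication and mitosis an E2F word was in the windows of 13 of 37 replication genes and 4 of 50 mitotic genes, and a CHR word in 8 of 37 replication genes and 39 of 50 mitotic genes.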
